A study of Mus musculus with 9 samples.

Results

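The cluster of miR-183, miR-96 and miR-182 was examined in the small RNA of extracellular vesicles (EVs) from bronchoalveolar lavage fluid (BALF) of mice exposed to ozone (O3). Its members were taken as every row of the hairpins mir-183, mir-96 and mir-182, with either arm and with isomiRs, which gave 17 of the 1308 entries in the table. Of these, 7 belonged to mir-183, 2 to mir-96 and 8 to mir-182, and 4 were mature miRNAs and 13 were isomiRs, forms whose 5′ end is shifted from that of the mature miRNA. Female C57BL/6J mice aged 8 to 10 weeks breathed filtered air (FA), 1 ppm O3 or 2 ppm O3 for 3 h in a whole-body chamber, and BALF was collected the next day. Each exposure was represented by 3 pools, made of BALF from 4 mice per pool for FA and from 3 mice per pool for either O3 concentration, so that pool size and exposure to O3 cannot be told apart. Values are reads per 1000000 reads mapped to miRNAs (RPMMM), and so are shares of a fixed total. After O3, a value can be lower through fewer vesicles with a miRNA, less of it per vesicle, or a rise of other miRNAs. Fewer vesicles and less per vesicle cannot be told apart in EV pools.

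The hairpins of this cluster are transcribed together and cut from a shared primary transcript, from which each yields a guide miRNA on its 5p arm. The cluster is best known from sensory epithelia, in hair cells of the inner ear and in photoreceptors, where it takes part in maturation and survival. miR-182 is also induced in activated helper T cells, and mRNAs such as that of the transcription factor Foxo1 are known targets. A miRNA finds its targets mainly through its seed, bases 2 to 8 from the 5′ end, so a shift of the 5′ end by a single base gives another seed.

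In the mm9 build the hairpins lie on the minus strand of chromosome 6 within 3820 bases, at chr6:30119668-30119737 for mir-183, chr6:30119446-30119551 for mir-96 and chr6:30115918-30115992 for mir-182. In the direction of transcription mir-183 comes first, mir-96 follows after 116 bases and mir-182 after a further 3453 bases. None of them overlaps another annotated gene. The nearest protein-coding genes are *Ube2h* on the same strand, 41551 bases away, and *Nrf1* on the opposite strand, 12459 bases away. The hairpin sequences of the RefSeq table (GRCm38.p6) are the same as the mm9 genome at these positions, and they are shown with the annotated 5p and 3p arms in capitals to place the products described here.
mir-183: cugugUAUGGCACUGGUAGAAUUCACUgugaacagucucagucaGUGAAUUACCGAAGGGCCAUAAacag
mir-96: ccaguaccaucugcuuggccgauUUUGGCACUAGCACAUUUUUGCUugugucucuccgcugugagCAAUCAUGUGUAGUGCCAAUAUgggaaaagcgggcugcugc
mir-182: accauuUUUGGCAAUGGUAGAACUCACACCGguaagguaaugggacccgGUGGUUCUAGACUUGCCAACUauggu

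The mature 5p arms and the isomiRs that could be tested are shown next, from RefSeq, with the seed in capitals. For an isomiR the sequence is read from the hairpin with the 5′ end moved by the number in its name, a plus sign being taken as towards the 3′ end, and with the 3′ end left in place, since the table gives no 3′ end.
miR-183-5p: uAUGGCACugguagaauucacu
miR-183-5p +1: aUGGCACUgguagaauucacu
miR-96-5p: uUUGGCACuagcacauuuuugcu
miR-96-5p +1: uUGGCACUagcacauuuuugcu
miR-182-5p: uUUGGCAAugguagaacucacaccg
miR-182-5p +1: uUGGCAAUgguagaacucacaccg

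The 5p arms are alike but have 3 different seeds. Counted from the 5′ end, the seed of miR-182-5p differs from that of miR-96-5p by A8C, and the seed of miR-96-5p differs from that of miR-183-5p by U2A. Over their whole length miR-182-5p and miR-183-5p share 18 of 22 aligned bases, and miR-182-5p and miR-96-5p share 12 of 23. The seed of miR-96-5p is also that of miR-1271-5p, while the seeds of miR-183-5p and miR-182-5p belong to no other of the 1679 mouse mature miRNAs in the RefSeq table. The +1 forms of miR-183-5p and miR-96-5p, as read from the hairpins, have the same seed as each other, UGGCACU, which none of the RefSeq mature miRNAs has. miR-96-5p +1 is shown for that reason, although its level was too low to be tested.

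The pools held between 281532 and 860933 miRNA reads as estimated from the steps between low values, with between 281532 and 300907 after 2 ppm O3 and at least 535519 in each pool of the other exposures. No entry was listed above 0 at a value of fewer than about 10 reads. The lowest value above 0 was between 11.8 and 18.9 RPMMM in the FA and 1 ppm O3 pools and between 34.3 and 37.3 RPMMM after 2 ppm O3, and a form under these values is listed at 0. RPMMM are shares of a fixed total. The 5 hairpins mir-5115, mir-5109, mir-5105, mir-5102 and mir-2137 together held 0.588% of this total in FA, 8.07% after 1 ppm O3 and 45.2% after 2 ppm O3. Over the 461 entries whose mean exceeded 50 RPMMM, the median log2 fold change was -0.08 after 1 ppm O3 and -0.83 after 2 ppm O3, both against FA, and the changes of the cluster are therefore also given relative to this median.

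Of the 17 members, 5 had a mean above 50 RPMMM and were tested, and these were miR-182-5p, miR-183-5p, miR-96-5p, miR-183-5p +1 and miR-182-5p +1. All entries of the 3 hairpins together held a summed level of 8555 ± 1133 RPMMM in FA (SD over n = 3 pools), 8606 ± 305 RPMMM after 1 ppm O3 and 5015 ± 253 RPMMM after 2 ppm O3, or 0.855%, 0.861% and 0.502% of the miRNA reads. In every pool miR-182-5p was the most abundant member, followed by miR-183-5p. In FA, miR-182-5p was at rank 36 of the 1308 entries, miR-183-5p at rank 87 and miR-96-5p at rank 241. The lowest miR-182-5p value of any pool, 3779 RPMMM, was above the highest of miR-183-5p, 1859 RPMMM, and the lowest of miR-183-5p, 731 RPMMM, was above the highest of miR-96-5p, 219.7 RPMMM. The ranges of miR-183-5p +1 and miR-96-5p over all pools overlapped. A level is compared here between RNAs of nearly the same length, but ligation and amplification can favour some sequences, so the order of different miRNAs is that of the reads.

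**Figure D1:**
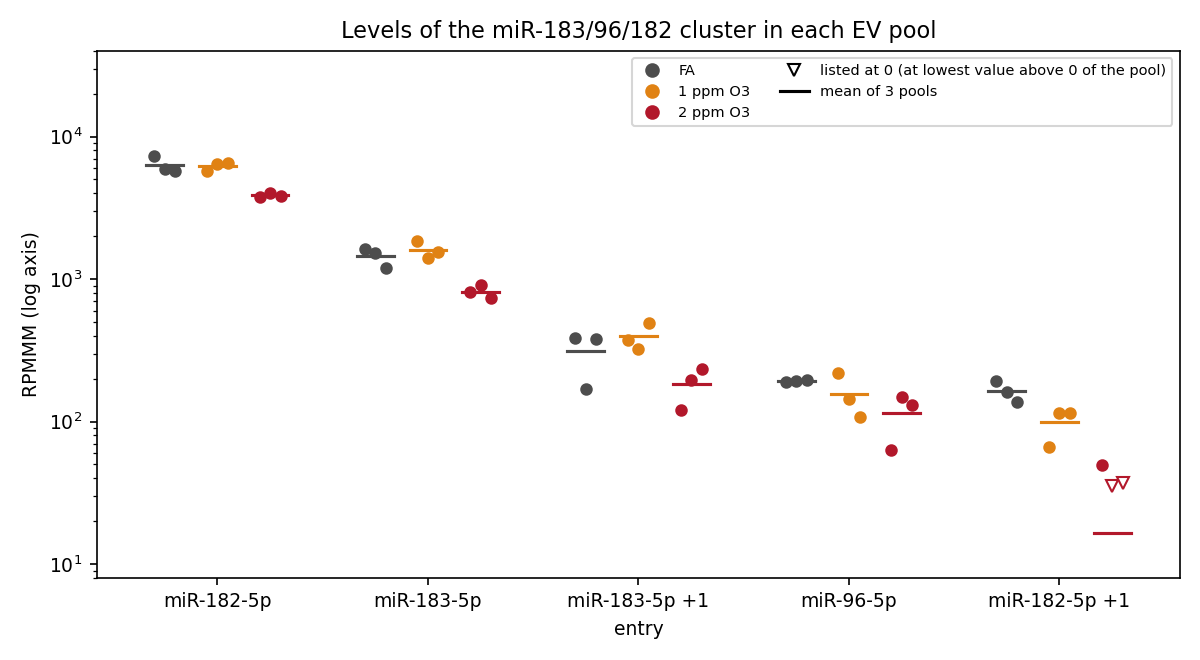
Level of each tested member in RPMMM (log axis) in the 3 FA, 3 1 ppm O3 and 3 2 ppm O3 pools, 1 point per pool, with a bar at the mean of 3 pools. An open triangle is a pool in which the entry was listed at 0, drawn at the lowest value above 0 of that pool, although it enters the mean as 0. The 2 ppm O3 pools of miR-182-5p, between 3779 and 3986 RPMMM, lie below all FA and 1 ppm O3 pools, and miR-182-5p +1 was listed at 0 in 2 of the 2 ppm O3 pools.

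The level of miR-182-5p, the leading member, was 7287, 5936 and 5717 RPMMM in the FA pools, 5733, 6384 and 6561 RPMMM after 1 ppm O3 and 3779, 3986 and 3822 RPMMM after 2 ppm O3. The FA and 1 ppm O3 pools overlapped, and the 2 ppm O3 pools lay below all of them and close together. Between 1076 and 5648 reads stood behind each value. Its coefficient of variation over the 9 pools was 23.7%, at rank 24 from the lowest of the 461 entries, whose median was 50.6%.

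The level of miR-183-5p was 1625, 1525 and 1203 RPMMM in FA, 1859, 1399 and 1551 RPMMM after 1 ppm O3 and 813, 905 and 731 RPMMM after 2 ppm O3. As for miR-182-5p, FA and 1 ppm O3 overlapped and the 2 ppm O3 pools were lower than all others. Its coefficient of variation was 30.8% (rank 63).

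The level of miR-96-5p was 189, 193 and 196 RPMMM in FA, 219.7, 144.1 and 107 RPMMM after 1 ppm O3 and 63.1, 149 and 131 RPMMM after 2 ppm O3. The FA pools were nearly equal, the pools of either O3 concentration were spread, and the 2 ppm O3 pools lay below those of FA but overlapped those of 1 ppm O3. The lowest of these values, that of 2 ppm O3 replicate 1, rests on 19 reads, with a 95% exact Poisson interval of 38.0 to 98.6 RPMMM. That of replicate 2 rests on 43 reads, with an interval of 107.5 to 200.1 RPMMM. The value of replicate 3 rests on 37 reads, with an interval of 92.5 to 181.2 RPMMM. These intervals cover counting error only and rest on the estimated number of reads. The intervals of 2 ppm O3 replicates 1 and 2 did not overlap, while that of replicate 3 overlapped both.

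After 1 ppm O3, none of the 5 members tested was called against FA. miR-182-5p and miR-183-5p stayed near their FA levels, while the pools of miR-96-5p were too spread to say so. An entry was called differentially expressed at an adjusted p below 0.05 from limma and a change of at least 2-fold, which 13.2% of all 461 entries met in this comparison. The log2 fold change was -0.01 for miR-182-5p (95% interval from -0.27 to 0.24), 0.15 for miR-183-5p (from -0.24 to 0.53) and -0.36 for miR-96-5p (from -1.34 to 0.63). The smallest adjusted p of the 5 members was 0.628 from limma, and none had an unadjusted p below 0.05. For miR-182-5p a change of 2-fold in either direction lies outside the interval, as it does for miR-183-5p, but for miR-96-5p a 2-fold decrease does not. The sign of the miR-182-5p value was positive under each of the other 3 scalings, at most 0.10.

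After 2 ppm O3, the 5 members were all lower than in FA as shares of the miRNA total, a direction that 4 of them lost when the total was taken without the 5 hairpins named above. Those 4 were lower by about the same factor as the median entry. Of the 5, 1 was called, against 43.6% of all entries (29.3% called lower), and this was the isomiR miR-182-5p +1. miR-182-5p fell to 0.615 times its FA level, with a log2 fold change of -0.70 (standard error 0.114, adjusted p = 0.000649 from limma), and miR-183-5p fell to 0.565 times, with -0.82 (standard error 0.172, adjusted p = 0.00279 from limma). Both passed the threshold for p but not that for the fold change, and an adjusted p below 0.05 at any fold was found for 3 of the 5 members and for 53.4% of entries. For miR-96-5p the log2 fold change was -0.84 (95% interval from -1.82 to 0.14, adjusted p = 0.126 from limma), which did not pass. In 4 of the 5 members all 2 ppm O3 pools were below all FA pools, and the same held for 48.2% of all entries. miR-183-5p +1 was the member whose ranges overlapped.

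Set against the median entry, the mature members differed little after 2 ppm O3 from FA. They were 0.12 for miR-182-5p, 0.00 for miR-183-5p and -0.01 for miR-96-5p on the log2 scale. The direction depended on the scaling. With mir-2137 left out of the total, the log2 fold changes of miR-182-5p, miR-183-5p and miR-96-5p were -0.39, -0.51 and -0.53. With median-of-ratios scaling, which uses the entries above 0 in every pool, they were 0.00, -0.13 and -0.15, with 95% intervals from -0.28 to 0.27 for miR-182-5p and from -0.54 to 0.29 for miR-183-5p. With the total taken without all 5 hairpins named above, they were 0.16, 0.04 and 0.02. The smallest adjusted p of the mature members under these last scalings was 0.305 from limma. The plot of the change under these scalings shows that the mature members moved together with the median.

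**Figure D2:**
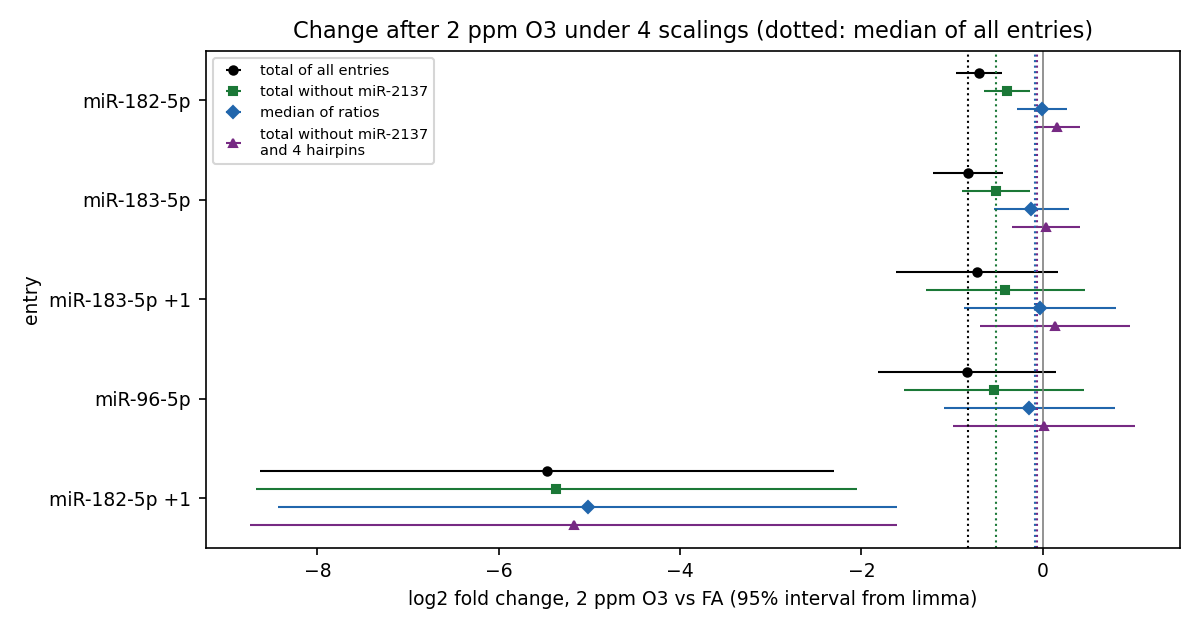
Log2 fold change of each tested member after 2 ppm O3 against FA, with the 95% interval from limma, under 4 scalings of the pools (symbols), with dotted lines at the median of all entries tested under each. The 4 members other than miR-182-5p +1 lie within their intervals of the median under every scaling, from -0.84 to 0.16, while miR-182-5p +1 lies between -5.47 and -5.02.

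**Figure D3:**
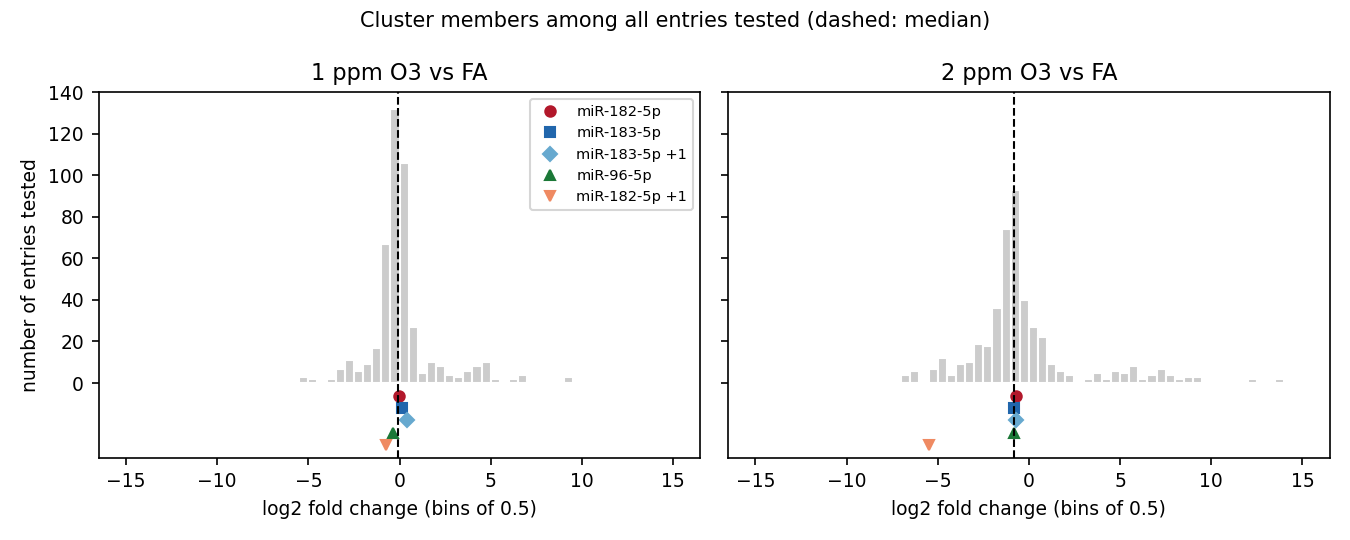
Number of the 461 entries tested by log2 fold change against FA, in bins of 0.5, for 1 ppm O3 (left) and 2 ppm O3 (right), with the members of the cluster as symbols below the bars and the median as a dashed line. After 2 ppm O3, 4 members sit at the median of -0.83 and miR-182-5p +1 at -5.47.

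Between 2 ppm and 1 ppm O3, the 5 members were again lower as shares of the total at the higher concentration. miR-183-5p had a log2 fold change of -0.97 (standard error 0.172, adjusted p = 0.00153 from limma) and miR-182-5p of -0.69 (standard error 0.114, adjusted p = 0.00101 from limma). Neither reached 2-fold, but miR-183-5p passed it and was called without 1 ppm O3 replicate 2 (-1.06, adjusted p = 0.00242 from limma) or without 2 ppm O3 replicate 2 (-1.05, adjusted p = 0.00368 from limma). miR-96-5p, at -0.48, did not pass either criterion (adjusted p = 0.387 from limma). The value of miR-182-5p was the median of all entries, -0.69. Of the 5 members, 2 were called, both isomiRs, against 33.6% of all entries (22.3% called lower). An adjusted p below 0.05 at any fold was found for 4 of 5 members and for 44.5% of entries, and in 4 of 5 the pools did not overlap and were lower at 2 ppm O3, as in 37.5% of entries. The called members were miR-182-5p +1, which changed by -4.71 on the log2 scale (limma, adjusted p = 0.0247), and miR-183-5p +1, with -1.13 (standard error 0.397, adjusted p = 0.0445 from limma). Under median-of-ratios scaling neither was called (adjusted p = 0.0609 and 0.322 from limma), and under that scaling miR-96-5p was at 0.13. The size of the miR-182-5p +1 value depends on the zeros of 2 pools, and it was -2.55 with 10 added before the log and -1.23 with zeros set to the lowest value above 0 of the pool. With any 1 ppm O3 pool or 2 ppm O3 replicate 2 left out, neither isomiR was called. miR-183-5p +1 also lost its call without FA replicate 3 (adjusted p = 0.0508 from limma) or 2 ppm O3 replicate 1 (0.135), and miR-182-5p +1 without 2 ppm O3 replicate 3 (0.0637).

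When all entries of a hairpin were summed before the fit, the totals of the 192 hairpins with a mean above 50 RPMMM gave a like picture. After 1 ppm O3 none of the 3 totals was called, against 5.73% of all, and after 2 ppm O3 none of the 3 was called against FA, compared with 50.0% of all hairpins. The mir-182 total changed by -0.74 on the log2 scale after 2 ppm O3 (adjusted p = 0.000235 from limma), the mir-183 total by -0.84 (adjusted p = 0.000825 from limma) and the mir-96 total by -0.93 (adjusted p = 0.0975 from limma), where the median of all hairpins was -1.05. Between 2 ppm and 1 ppm O3 the mir-183 total was called, with -1.01 (adjusted p = 0.000268 from limma), against 35.9% of all hairpins. This value lay at the threshold of 2-fold and did not pass it when either 1 ppm O3 replicate 1 or 3, or either 2 ppm O3 replicate 1 or 3, was left out, nor under the other 3 scalings.

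A trend with the concentration was tested by counting, over the 27 pairs of pools from different exposures, how many were in the order of the concentration. For miR-182-5p, 22 pairs fell (exact permutation test, two-sided, p = 0.0738, adjusted p = 0.145 over 461 entries), and for miR-183-5p and miR-96-5p 21 pairs each (exact permutation test, p = 0.123, adjusted p = 0.197). All 27 pairs of miR-182-5p +1 fell (p = 0.00119 by the same exact test, which is the lowest value possible with 9 pools, adjusted p = 0.00704). This was 1 of 5 members with an adjusted p below 0.05, against 28.6% of all entries (16.3% falling). With the total taken without the 5 hairpins, 26 of the 27 pairs of miR-182-5p +1 fell and its adjusted p was 0.0508, while 19 of the 27 pairs of miR-182-5p rose.

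Within a pool, ratios between members do not depend on the scaling. The mir-182 hairpin supplied from 76.3% to 76.9% of the reads of the cluster in FA, from 70.5% to 77.8% after 1 ppm O3 and from 76.4% to 79.3% after 2 ppm O3. The mir-183 hairpin supplied from 20.9% to 21.2% in FA, from 20.5% to 26.9% after 1 ppm O3 and from 19.4% to 20.8% after 2 ppm O3, and the mir-96 hairpin from 1.19% to 2.83% over all pools. The ranges of the exposures overlapped, except that the mir-183 shares after 2 ppm O3 lay just below those of FA.

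The ratio of miR-182-5p to miR-183-5p was 4.38 ± 0.441 (SD, n = 3 pools) in FA, 3.96 ± 0.776 after 1 ppm O3 and 4.76 ± 0.424 after 2 ppm O3. The lowest ratio, 3.08, was that of 1 ppm O3 replicate 1, and the ranges of the exposures overlapped. The ratio of miR-182-5p to miR-96-5p was 32.8 ± 4.99 in FA, 43.9 ± 17.6 after 1 ppm O3 and 38.6 ± 18.4 after 2 ppm O3. It was more variable, from 26.1 to 61.4 over all pools, with 2 high pools, 1 ppm O3 replicate 3 and 2 ppm O3 replicate 1.

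**Figure D4:**
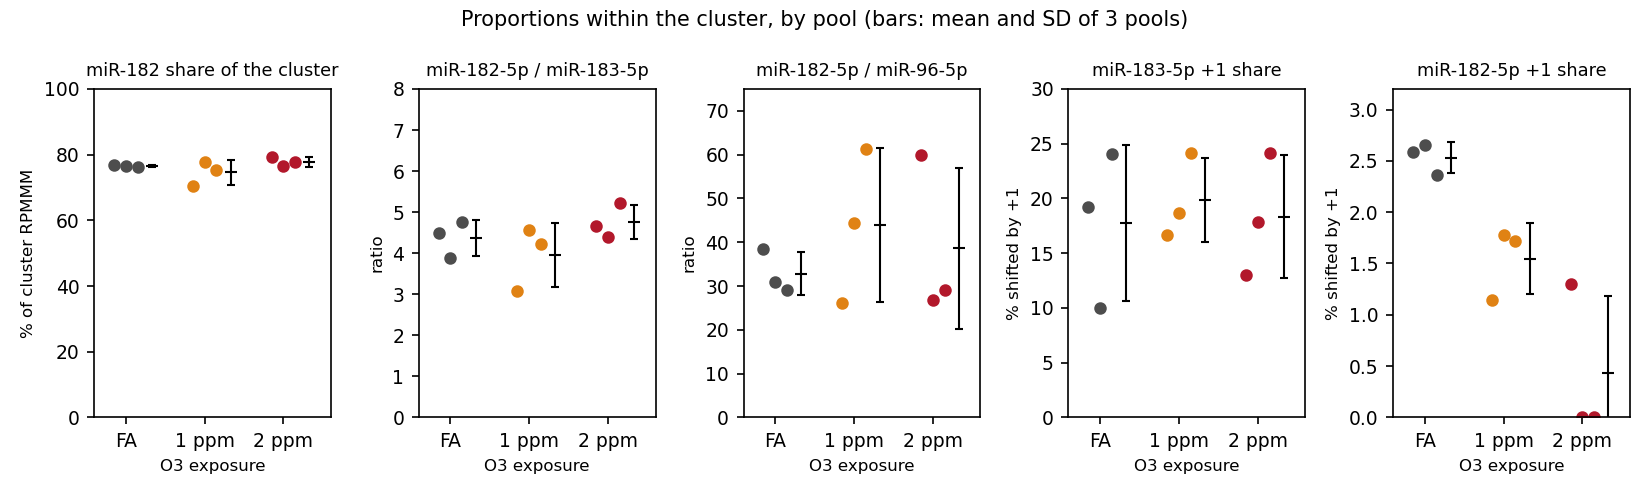
Proportions within the cluster for each pool (points) with the mean and SD of 3 pools (bars), from left to right the share of the cluster's RPMMM from mir-182, the ratios of miR-182-5p to miR-183-5p and to miR-96-5p, and the percentage of the +1 form among miR-183-5p and miR-182-5p each with its +1 form. The mir-182 share lies between 70.5% and 79.3% in all pools, and the miR-182-5p +1 share is between 2.36% and 2.65% in FA and at most 1.77% after O3.

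The 5p arms differed in how often their 5′ end was shifted. Over all pools, 19.5% of the reads of miR-183-5p were in shifted isomiRs, at rank 42 of the 252 arms with a summed mean above 50 RPMMM, whose median was 4.92%. For miR-182-5p the share was 2.76% (rank 192) and for miR-96-5p 2.65% (rank 195). Most of the shifted reads of miR-183-5p were in the +1 form, whose seed is UGGCACU in place of AUGGCAC.

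The level of miR-183-5p +1 was 387, 170.1 and 381 RPMMM in FA, 372, 322 and 493 RPMMM after 1 ppm O3 and 121, 197 and 233 RPMMM after 2 ppm O3. FA replicate 2 lay below the other FA pools and inside the range of 2 ppm O3. Among miR-183-5p and its +1 form, the +1 form made up 17.8% ± 7.12 of the reads in FA (SD over n = 3 pools), 19.8% ± 3.85 after 1 ppm O3 and 18.3% ± 5.59 after 2 ppm O3, and the ranges of the exposures overlapped, with the lowest share, 10.0%, in FA replicate 2. The log2 fold change of miR-183-5p +1 was -0.72 after 2 ppm O3 against FA (95% interval from -1.61 to 0.17, adjusted p = 0.143 from limma). Without FA replicate 2 it was -1.11 and was called (adjusted p = 0.0315 from limma). Relative to its mature form, the difference was 0.10 after 2 ppm O3 (95% interval from -1.01 to 1.21) and became -0.33 without FA replicate 2.

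The level of miR-182-5p +1 was 193, 162 and 138 RPMMM in FA, 66.6, 115 and 115 RPMMM after 1 ppm O3 and 49.85 RPMMM in 2 ppm O3 replicate 1, with the other 2 pools listed at 0. As shares of the total, no ranges overlapped between exposures, and the level was lower at each step of the concentration. At 1 ppm O3 such a separation below FA was found for 1 of the 5 members and for 18.4% of all entries. At 2 ppm O3 it was found for 4 of 5 members and 48.2% of entries against FA, and for 4 of 5 and 37.5% against 1 ppm O3. Under median-of-ratios scaling, and with the total without the 5 hairpins, 26 of the 27 pairs of pools fell, so the order was not complete. The log2 fold change of miR-182-5p +1 was -0.76 after 1 ppm O3 (95% interval from -3.92 to 2.41, adjusted p = 0.827 from limma). After 2 ppm O3 it was -5.47 (95% interval from -8.63 to -2.30, adjusted p = 0.009 from limma). Both intervals use a spread shared over the 9 pools, so the zeros after 2 ppm O3 also widen the interval for 1 ppm O3. With only the FA and 1 ppm O3 pools in the fit, the -0.76 had an adjusted p of 0.318 from limma. The size of the value after 2 ppm O3 depends on how zeros are treated. It was -3.25 with 10 added before the log in place of 1, and -1.98 with values listed at 0 set to the lowest value above 0 of the pool (adjusted p = 0.00142 from limma). In the latter fit 2 of the 2 ppm O3 values are set rather than measured, so its p is no measure of the spread between these pools. The decrease after 2 ppm O3 was called under each scaling.

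As a share of miR-182-5p and its +1 form, the +1 form made up 2.58%, 2.65% and 2.36% in the FA pools, 1.15%, 1.77% and 1.72% after 1 ppm O3 and 1.30%, 0% and 0% after 2 ppm O3. With the zeros set to the lowest value of the pool, the share in the latter pools was 0.881% and 0.967%, which is the most that a value under the minimum allows. All O3 pools were below all FA pools in this share, which does not depend on the scaling, while the 1 ppm and 2 ppm O3 pools overlapped. How many of all isomiRs were separated in this way is not given here, so the separation cannot be called particular to this form. Tested across the 219 isomiRs with a mature form above 50 RPMMM, a comparison added after the data were seen, the difference between miR-182-5p +1 and miR-182-5p after 2 ppm O3 was -4.77 on the log2 scale and was not called (limma, adjusted p = 0.104), where 4.57% of isomiRs were. Without 2 ppm O3 replicate 1 the difference was called at -6.67, but both pools left are listed at 0. These zeros leave almost no spread within 2 ppm O3, and the size of the value follows from the 1 added before the log. That call is therefore no measure of the spread between 2 ppm O3 pools. With zeros set to the lowest value of the pool the difference was -1.28 and passed (adjusted p = 0.0112 from limma). In that fit 2 of the 2 ppm O3 values are set rather than measured, so its p is no measure of that spread either. After 1 ppm O3 the difference was -0.74 (adjusted p = 0.952 from limma, and 0.129 with the zeros so set), where also 4.57% of isomiRs were called. The spread of the 2 ppm O3 pools enters these p-values too. Between the concentrations the difference was not called either (adjusted p = 0.618 from limma), as against 0.913% of isomiRs. It was called there without 2 ppm O3 replicate 1, with the same limit. The values after 2 ppm O3 rest on 15 reads in replicate 1 and on fewer than about 10 in the other pools, against between 74 and 149 reads in the FA pools, and the number of miRNA reads in these libraries was also lower. The part of depth in this difference was not tested.

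The other 12 members had a mean of at most 50 RPMMM and were not tested. None of them was above 77.5 RPMMM in any pool, and 6 of the 12 were above 0 in 1 pool only. miR-182-5p +2 was listed above 0 in 7 pools, at 36.3, 24.6 and 29.9 RPMMM in FA, at 49.9, 23.4 and 60.4 RPMMM after 1 ppm O3 and at 0, 65.7 and 0 RPMMM after 2 ppm O3. It was the only 1 of the 12 above 0 in any 2 ppm O3 pool, where the minimum was higher. miR-96-5p +1, which shares its seed with miR-183-5p +1, was at 15.5 and 22.4 RPMMM in 2 FA pools and at 0 in all other pools. From the 3p arms, miR-182-3p was above 0 in 1 pool, at 24.96 RPMMM, and miR-183-3p +1 in 2 FA pools, at 31.1 and 24.3 RPMMM. The strands opposite the guides were therefore near or under the minimum in all pools.

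miRNAs known from particular cell types gave a frame for these changes after 2 ppm O3 against FA, with none of the 3 mature members of the cluster called and a median of -0.82. Over all 461 entries tested, isomiRs included, 29.3% were called lower, 66 entries were called higher and the median was -0.83. In a fit of mature entries only, 74 of 213 were called lower and 12 higher. Called lower in the epithelial miR-200 family were miR-200a-3p, miR-200a-5p, miR-200b-3p, miR-200b-5p and miR-200c-3p, 5 of 8 mature miRNAs tested. None of the family was called higher, with a median of -1.24 and all 8 values below 0. Under median-of-ratios scaling, however, 1 of 8 in the family was called lower. Its leading member miR-200b-3p, known for maintaining epithelial identity, was at 29535 ± 2433 RPMMM in FA (SD over n = 3 pools) and at 11303 ± 1041 RPMMM after 2 ppm O3 (log2 fold change -1.39, adjusted p = 2.14e-06 from limma), and under median-of-ratios scaling its change was -0.69. Among barrier epithelium miRNAs (miR-203, miR-205 and miR-31), 1 of 4 was called lower, miR-203-3p, with a median of -1.14 and all 4 values below 0, and miR-205-5p had a value of -0.83. Under each of the other 3 scalings none of these 4 was called, and with median-of-ratios scaling their median was -0.44. In the miR-34 and miR-449 family of ciliated cells, 2 of 6 were called lower, miR-34a-5p and miR-449a-3p. The median of the 6 was -0.68, which became 0.01 under median-of-ratios scaling. miR-34b-3p had a value of 0.19, which became 0.89 under that scaling (adjusted p = 0.0193 from limma). With the total taken without the 5 hairpins, miR-34b-3p was at 1.06 and was called higher (adjusted p = 0.00779 from limma). Among leukocyte miRNAs 2 of 4 were called lower, miR-142-3p and miR-342-3p, with a median of -0.57 that became 0.13 under median-of-ratios scaling, and the neutrophil miRNA miR-223-3p had a value of -0.08. None of 2 erythroid miRNAs was called (miR-451 at -1.50, adjusted p = 0.0833 from limma), both arms of the endothelial miR-126 were called higher (2.32 for miR-126-3p), and none of the 3 muscle miRNAs listed was above 50 RPMMM. The part of changes in cell types in the levels of the cluster was not tested.

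The mature miRNAs of other hairpins whose log2 levels followed miR-182-5p most closely over the 9 pools were, of 233 compared, miR-191-5p (Pearson r = 0.99), miR-652-3p (0.98), miR-26b-5p (0.97), miR-30e-5p (0.97) and miR-200a-3p (0.97), where the median r was 0.60. miR-183-5p had an r of 0.91 with miR-182-5p (rank 37) and miR-96-5p an r of 0.53. The pools share the fixed total and the exposures, and with median-of-ratios scaling, added after the data were seen, the same 5 values were between 0.37 and 0.63, that of miR-183-5p was 0.50, that of miR-96-5p turned to -0.38 and the median was -0.05.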

How the data were processed

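Small RNA was isolated by the authors from EVs of pooled BALF, sequenced in 1 library per pool, and trimmed reads were aligned to mm9 (NCBI37) and quantified as miRNAs and isomiRs with miRquant 2.0. The values deposited by the authors are RPMMM, that is RPM of the reads mapped to miRNAs, and each column sums to 1000000 over all entries. The labels place 3 pools in each exposure and name separate pools of mice.

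From these values, log2(RPMMM + 1) of the 461 entries whose mean exceeded 50 RPMMM was modelled in R 4.3.3 by limma 3.58.1, with 1 model of the 9 pools, a mean per exposure and a variance trend. Adjusted p-values are Benjamini-Hochberg values over these entries. The thresholds (2-fold, 0.05 and 50 RPMMM) are those of the study, whose methods name no test for the sequencing. The fit was tested on simulated data. Trends were tested over all 1680 arrangements of the pools. The value of 1 read was estimated per pool from the steps between low values (tolerance 0.006 RPMMM). Between 31.7% and 48.8% of low values lay on whole reads, so no count test was run, and 42 of the 43 values above 0 of the tested members lay within 0.05 reads of a multiple of 0.5 reads.

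Every member was named. Of other hairpins, the 5 most correlated with the leading member and the leading miRNA of each list were named, and where at most 5 list members were called they were named after their values were seen. The members and lists were chosen with earlier results of these data known. Tables were handled in pandas 2.3.3 under Python 3.11.15, with scipy 1.17.1 for tests, numpy 2.4.6, and matplotlib 3.10.9 for plots. Alternatives were the pseudocount, the filter, the scaling, the treatment of zeros, the variance model, the entries tested and each pool left out. Other small RNAs, particle and cytometry data were not analysed here.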

Additional observations from a re-analysis of the deposited data

Results flagged for a closer look

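Members outside the tests were listed above 0 after 1 ppm O3 while at 0 in every FA pool: miR-183-5p -2 at 18.3 RPMMM, miR-183-5p +3 at 23.4 RPMMM, miR-182-5p +4 at 19.8 RPMMM, miR-182-5p +5 at 18.3 RPMMM and miR-182-3p at 24.96 RPMMM. Each was above 0 in 1 pool only, with between 11 and 15 reads, close to the minimum of about 10 reads. Other untested members went the other way, above 0 in FA and at 0 in every O3 pool. These were miR-183-3p +1 and miR-96-5p +1, each in 2 FA pools, and miR-183-5p +6 in 1 FA pool. How many of all entries show either pattern is not given here.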

How the results depend on the processing

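No paired analysis was possible because the labels give no replicate numbers shared between exposures. No member was called after 1 ppm O3, and no hairpin total after either concentration against FA, under any alternative run. After 2 ppm O3 against FA, the 1 call, miR-182-5p +1, became 0 with a filter of 200 RPMMM and with mature entries only, where it is not tested, and the count was between 1 and 2 with each pool left out. Between 2 ppm and 1 ppm O3, the count of 2 became 1 without a filter, with a filter of 200 RPMMM, with the total without miR-2137, without a variance trend and with the 6 pools compared alone, became 0 with median-of-ratios scaling, with the total without 5 hairpins and with mature entries only, and lay between 0 and 2 with each pool left out, with 0 called without 1 ppm O3 replicate 1 or 3. The hairpin total of mir-183 in this comparison was lost (0 called) under the 3 other scalings and with zeros at the lowest value, and the count was between 0 and 1 with each pool left out. The trend count became 0 with the total without 5 hairpins.

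Values that changed sign were those of miR-182-5p after 1 ppm O3 (0.07 with median-of-ratios scaling and relative to the median, 0.04 without miR-2137, 0.10 without 5 hairpins, and between -0.08 and 0.09 with each pool left out). After 2 ppm O3 against FA they were, without 5 hairpins, miR-183-5p at 0.04, miR-183-5p +1 at 0.14, miR-96-5p at 0.02, miR-182-5p at 0.16 and miR-205-5p at 0.03, and, relative to the median, miR-183-5p at 0.00, miR-183-5p +1 at 0.10 and miR-182-5p at 0.12. Between 2 ppm and 1 ppm O3, miR-96-5p was at 0.13, 0.26 and 0.21 with median-of-ratios scaling, without 5 hairpins and relative to the median. In that comparison miR-182-5p was at 0.06 without 5 hairpins. Relative to the median it was at 0.00, being itself the median entry, which is not a change of sign. miR-223-3p after 2 ppm O3 was at 0.62 with median-of-ratios scaling, 0.23 without miR-2137, 0.79 without 5 hairpins and between -0.23 and 0.12 with each pool left out. With each pool left out, miR-183-5p +1 relative to its mature form lay between -0.17 and 0.58 after 1 ppm O3, between -0.33 and 0.42 after 2 ppm O3 and between -0.44 and 0.11 between the concentrations.

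Over the whole table, 61 calls after 1 ppm O3 became 9 without 5 hairpins and 13 with mature entries only. The 201 calls after 2 ppm O3 became 120 with median-of-ratios scaling (87 higher and 33 lower, against 66 and 135), 69 without 5 hairpins and 86 with mature entries only, and the 155 between the concentrations became 81, 50 and 60, and 102 without 1 ppm O3 replicate 3. These scalings change the total, or the entries, by construction. The other causes were not tested. The depth after 2 ppm O3 limits what can be said of isomiRs under about 37.3 RPMMM.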
